A study of Mus musculus with 5 samples.

Results

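The stromal matrix metalloproteinases and their tissue inhibitors (TIMPs) were followed across whole knee joints of wildtype mice and of mice lacking both epiphycan and biglycan. The 10 genes were taken by symbol from the platform annotation: the enzymes Mmp2, Mmp3, Mmp11, Mmp13, Mmp14 and Mmp16 and the inhibitors Timp1, Timp2, Timp3 and Timp4. All 10 were found, on 22 of 22626 probe sets other than array controls (9 for enzymes and 13 for inhibitors), among 12393 genes in all. Both groups were male mice aged 3 months on a C57/Bl6:129 hybrid background, either wildtype or null for Epyc, which encodes epiphycan, and for Bgn, which encodes biglycan. Both are small leucine-rich proteoglycans of connective tissue. Each array carried RNA from the tibio-femoral joints of 3 mice, 6 joints pooled, and there were 2 wildtype and 3 double-null pools. The pools hold whole joints, so fewer cells of a type and less RNA per cell cannot be told apart in any value below.

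Matrix metalloproteinases are zinc-dependent endopeptidases that are made as inactive proenzymes and cleave collagens, proteoglycans and other matrix proteins once their propeptide is removed. TIMPs bind the active site of the enzymes in a tight complex of equal proportions, and Timp2 also serves, bound to the membrane enzyme encoded by Mmp14, as the docking partner through which the Mmp2 proenzyme is activated. In joints these enzymes are known from fibroblasts, synovium, growth plate cartilage and bone, where Mmp13 is a collagenase of hypertrophic chondrocytes and osteoblasts.

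Mmp3 and Mmp13 are members of a family gene cluster on chromosome 9, and their promoters carry the same element in the window searched. Their sequences are shown with that of the inhibitor gene Timp1 because these genes are set against each other below. Each line gives the 250 bases before the annotated start of the gene, 5′ to 3′ on the gene's own strand, from RefSeq on GRCm38.p6. The windows are chr9:7445572-7445821 on the plus strand for Mmp3, chr9:7272264-7272513 on the plus strand for Mmp13 and chrX:20869916-20870165 on the plus strand for Timp1. Capitals mark matches on either strand to the AP-1 element with the letters TGAGTCA, the PEA3 element with the letters AGGAAG, the TATA element with the letters TATAAA and the RUNX element with the letters AACCACA. On the opposite strand the AP-1 element reads TGACTCA in these lines.
Mmp3: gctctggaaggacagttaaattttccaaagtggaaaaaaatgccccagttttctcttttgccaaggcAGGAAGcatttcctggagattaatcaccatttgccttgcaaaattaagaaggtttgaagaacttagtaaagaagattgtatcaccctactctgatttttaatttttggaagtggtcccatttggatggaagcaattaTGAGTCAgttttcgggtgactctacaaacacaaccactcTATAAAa
Mmp13: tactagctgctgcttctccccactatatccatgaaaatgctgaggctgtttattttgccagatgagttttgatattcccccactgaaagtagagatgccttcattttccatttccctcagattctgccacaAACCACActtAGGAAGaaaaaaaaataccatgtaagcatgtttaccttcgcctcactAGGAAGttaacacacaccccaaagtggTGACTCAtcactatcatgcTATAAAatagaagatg
Timp1: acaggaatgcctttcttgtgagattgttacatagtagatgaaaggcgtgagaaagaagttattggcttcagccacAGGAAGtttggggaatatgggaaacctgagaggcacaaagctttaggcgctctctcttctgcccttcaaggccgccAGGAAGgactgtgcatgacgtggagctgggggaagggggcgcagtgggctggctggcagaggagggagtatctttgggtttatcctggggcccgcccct
The AP-1 element lay 46 to 40 bases before the start in Mmp3 and 35 to 29 bases before it in Mmp13, where it read on the opposite strand. No other member with an entry held that element in the window, and 8 members had one. Of all 32851 promoter windows of this length, 4.46% held the AP-1 element, 29.5% the PEA3 element, 12.4% the TATA element and 4.4% the RUNX element. Among the 8 members, 2 held AP-1, 6 held PEA3, 2 held TATA (Mmp3 and Mmp13) and 1 held RUNX (Mmp13). The GC box with the letters GGGCGG was searched as well and is not in capitals here; 5 of the 8 members held it, Timp1 among them, and 32.7% of all windows. A match is a description of the letters and no evidence that a factor was bound.

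Signal was measured on Affymetrix arrays and came in 2 tables with the same 22690 probe sets, called array types here; the tables belong to separate platform records, and what else differed between them, such as the chips or a batch, is unknown here. Wildtype pool 2 and double-null pool 3 made up type A, and wildtype pool 1 with double-null pools 1 and 2 made up type B. Deposited signals had a 2% trimmed mean of 250.1 on each array, and the controls for Bacillus transcripts (27 probe sets without a mouse target) reached 63.5 at most. The labels held for the targeted genes: the 3 Bgn probe sets read 2003 to 4063 in wildtype and 7.05 to 224 in double-null pools, and the Epyc probe set read 78.8 to 91.2 against 1.29 to 10.8. Chondrocyte markers were present in every pool, with 7 of 10 above the intensity filter. Differences below are log2 values of signal + 32 after quantile normalisation, double-null minus wildtype, with array type as a term of the fit. The added 32 makes differences of dim genes come out too small, and with 5 arrays the precision is limited. The labels name 3 mice per array. Each array was taken as a separate pool of mice, which is an assumption of the fit. A brightness is compared only with the same probe set on other arrays, since probe sets differ in how strongly they hybridise.

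None of the members passed the adjusted threshold of 0.05, while 9 of 7436 tested genes did (0.121%). Of the 10 genes 7 lay above the intensity filter, a signal near 98.5, and were tested: Mmp2, Mmp3, Mmp13, Mmp14, Timp1, Timp2 and Timp3. Mmp11, Mmp16 and Timp4 lay below it and are given as values. On the brightest probe sets all 7 tested members had positive log2 fold changes, where 47.9% of tested genes did. The sign of Mmp14 differed between the array types. Members were chosen with earlier results of these data known, so this count carries no test. The untested Mmp11, Mmp16 and Timp4 were also positive but dim, and the second Timp4 probe set was at -0.36. At unadjusted p under 0.05 (limma) there were 2 of the 7 tested members, Mmp3 and Mmp2, against 6.17% of tested genes. Every double-null pool lay above both wildtype pools for 3 of the 7 (Mmp2, Mmp3 and Timp1), against 9.45% of tested genes. Double-null pools lay below both for 0, against 10.2%. Mmp3 is in both counts, although its wildtype signals lay under the filter's signal and it was tested through the double-null pools.

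**Figure D1:**
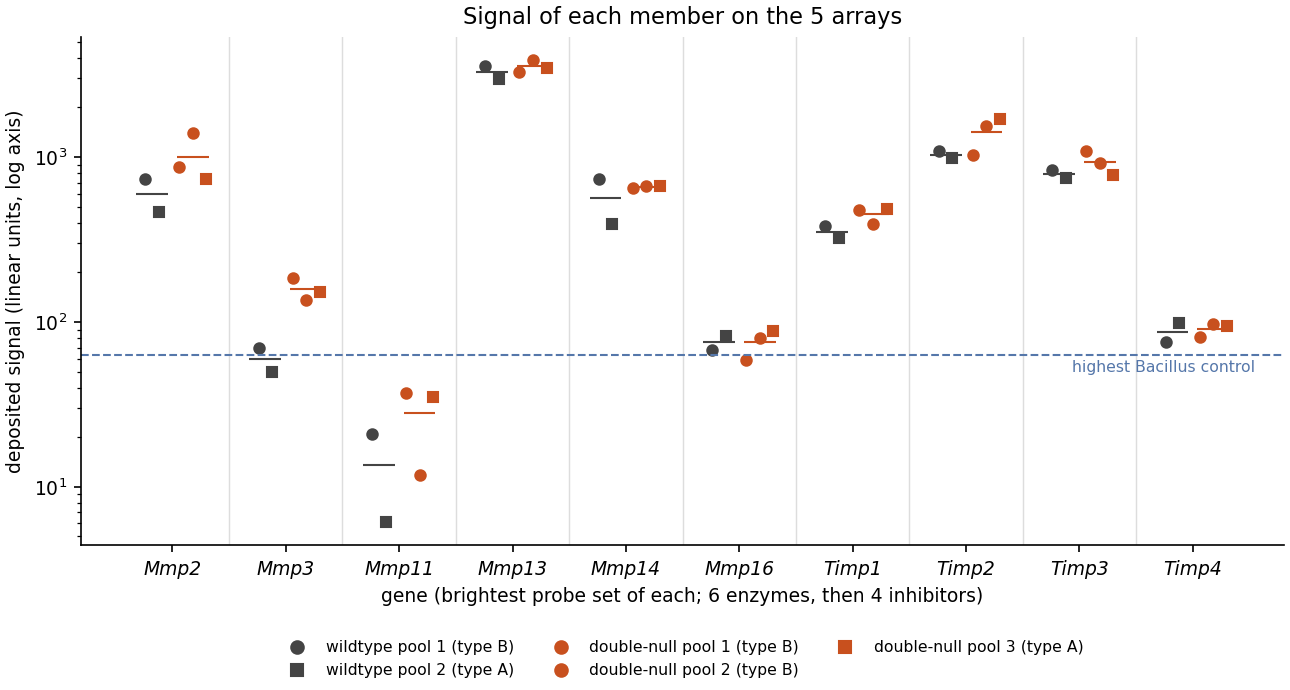
Deposited signal of the brightest probe set of each gene on a logarithmic axis, with 1 point per array, a short line at each group mean, grey for the 2 wildtype and orange for the 3 double-null pools, squares for array type A and circles for type B. Mmp3 separates the groups with a gap, at 49.7 and 69.6 in wildtype against 136 to 184.5 in double-null pools, while Mmp11 lies below the highest Bacillus control (dashed line, 63.5) on all arrays.

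Mmp3 encodes stromelysin 1, which degrades proteoglycans and other noncollagenous matrix and activates other proenzymes of the family. Its signal was 69.6 and 49.7 in wildtype pools 1 and 2 and 184.5, 136 and 153 in double-null pools 1 to 3. The double-null pools were all higher, and the groups did not overlap. The log2 fold change was 1.06 ± 0.21 (SE), a 2.08-fold difference with a 95% interval of 1.51 to 2.88, at limma unadjusted p = 0.00036 and adjusted p = 0.11 over 7436 genes. It ranked 25 by p among those genes. Within type A the difference was 1.16 and within type B it was 0.98, where double-null pools 1 and 2 lay 1.20 and 0.77 above the wildtype pool. Its wildtype signals lay under the filter's signal, so Mmp3 entered the test through the double-null pools; with no filter the adjusted p was 0.53. Over 15 alternative settings the fold change ran from 0.61 to 1.41 and the adjusted p from 0.0035 to 0.90, and Mmp3 passed the threshold only without double-null pool 2 (1.18, adjusted p = 0.0035).

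Mmp2 encodes gelatinase A, the type IV collagenase of fibroblasts, and had 2 probe sets. The brighter read 733 and 464 in the wildtype pools and 872.5, 1408 and 738 in the double-null pools. All double-null pools lay above both wildtype pools, though double-null pool 3 exceeded wildtype pool 1 by little. The log2 fold change was 0.58 ± 0.22 (SE), a 1.49-fold difference with a 95% interval of 1.08 to 2.07, at limma unadjusted p = 0.020 and adjusted p = 0.68. The second probe set read 536 and 419.6 against 1029.8, 809 and 1022, with no overlap and a wide gap. Its log2 fold change was 0.94, at unadjusted p = 0.0016 and adjusted p = 0.51 in the limma fit over all 22626 probe sets. For types A and B respectively, the brighter probe set gave 0.65 and 0.52 and the second gave 1.25 and 0.70. The size thus differed between the probe sets, by 0.36, while the direction was shared on both array types.

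Mmp14 encodes MT1-MMP, the membrane-anchored collagenase that activates the Mmp2 proenzyme. Its brighter probe set read 737.5 and 392 in the wildtype pools and 649, 665 and 668 in the double-null pools. The double-null pools lay between the wildtype pools, so the groups overlapped. The log2 fold change was 0.21, with a 95% interval of -0.26 to 0.68 (limma adjusted p = 0.99), and the tables differed in sign, with 0.73 for type A but -0.18 for type B. The second probe set read 215.5 and 143 against 185.5, 223 and 289, at 0.88 (type A) and -0.027 (type B). The positive value of Mmp14 therefore came from the type A pair, which holds wildtype pool 2; on type B alone it turned to -0.18, and so it did without wildtype pool 2 or double-null pool 3.

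Mmp13, the collagenase of hypertrophic cartilage and bone, was bright in every pool. It read 3576.5 and 2975 in the wildtype pools and 3286, 3891 and 3495 in the double-null pools. The groups overlapped. The log2 fold change was 0.13, and its 95% interval of -0.20 to 0.45 bounds the fold between 0.87 and 1.37 (limma adjusted p = 0.99). The hypertrophic chondrocyte markers had a median of -0.21 over 4 tested genes, which was 0.076 on type A and -0.28 on type B. Of these genes 1 was positive and 3 negative, from -0.52 to 0.48. Their summed signals were 2592 to 2777 in wildtype and 1869 to 2676 in double-null pools. Mef2c made up much of the sums, at 1065 and 2019 in wildtype and 825, 1173 and 1361 in double-null pools. The osteoblast and osteocyte markers had a median of -0.066 over 7, with summed signals of 4345 to 5148 and 4510 to 5059. Their part in the Mmp13 value was not tested.

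Mmp11 and Mmp16 were dim. Mmp11, stromelysin 3, a furin-activated enzyme of stromal fibroblasts, read 21.0 and 6.13 in wildtype and 37.1, 11.9 and 35.2 in double-null pools. It exceeded the highest Bacillus control of the same array on 2 of 5 arrays, so its log2 difference of 0.41 is not an exact size; it was 1.05 with a pseudocount of 1. Mmp16, which encodes another membrane-anchored enzyme, read 67.9 and 82.6 against 58.5, 80.0 and 87.7 on its brighter probe set, at 0.084. Its second probe set read 90.9 and 43.3 against 64.3, 98.2 and 77.8, at 0.20. Both of its probe sets overlapped between the groups.

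The tested inhibitors had positive values on their brightest probe sets, and none passed the threshold. Timp1, the inducible inhibitor of most secreted enzymes of the family, read 383 and 324 in the wildtype pools and 478.5, 391 and 485 in the double-null pools. The groups did not overlap, although double-null pool 2 was close to wildtype pool 1. The log2 fold change was 0.33, with a 95% interval of -0.077 to 0.74 (limma adjusted p = 0.85), and the values within the tables were 0.56 (type A) and 0.16 (type B).

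Timp2, the constitutively made inhibitor that also takes part in Mmp2 activation, had 6 probe sets with unequal differences. The brightest read 1085.5 and 988 in wildtype and 1032, 1537 and 1695 in double-null pools, with overlap through double-null pool 1. Its log2 fold change was 0.42, with a 95% interval of -0.054 to 0.90 (limma adjusted p = 0.85). Over the 6 probe sets the values ran from -0.13 to 0.86, and 5 were positive. The highest belonged to a probe set that read 728 and 498 against 1287, 843 and 1312, with no overlap (unadjusted p = 0.014, adjusted p = 0.79 over all probe sets, limma). The next brightest read 1178.5 and 931 against 1166, 1031 and 1311, with overlap and a value of 0.13. The negative value came from a dim probe set, which exceeded its array's highest Bacillus control on 1 of 5 arrays. All 6 were positive on type A, from 0.082 to 1.399, and on type B they ran from -0.28 to 0.45.

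Timp3, the inhibitor that binds the extracellular matrix and also blocks several ADAM and ADAMTS enzymes, had 4 probe sets, with values from -0.037 to 0.39. The brightest read 839 and 751 in wildtype and 1092, 924 and 774 in double-null pools. The groups overlapped, and the log2 fold change was 0.14 with a 95% interval of -0.23 to 0.52 (limma adjusted p = 0.99). Timp4, an inhibitor known from heart, muscle and fat, lay under the filter. Its brighter probe set read 75.6 and 99.1 against 81.4, 96.7 and 94.96, at 0.12, and the other read 81.0 and 119 against 69.4, 47.9 and 74.6, at -0.36. The probe sets of Timp4 differed in sign. On the second, the double-null pools lay below both wildtype pools in deposited signal, but the groups overlapped after normalisation.

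Over all 22 probe sets 19 had positive and 3 negative values, where 49.2% of all probe sets were positive. None passed the threshold, against 0.0265% of all probe sets, and 5 had an unadjusted p under 0.05, against 5.35%. On the normalised scale groups lay apart, double-null higher, on 6 of the 22 (9.24% of all probe sets) and double-null lower on 0 (9.93%). The difference was positive on both array types for 12 (23.0%), negative on both for 2 (25.1%), and of unlike sign for 8 (51.8%). Probe sets of a gene read the same transcripts in the same pools, so these counts are not counts of independent measurements. Of the 5 probe sets with an unadjusted p under 0.05, 2 belonged to Mmp2, 2 to Timp2 and 1 to Mmp3.

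**Figure D2:**
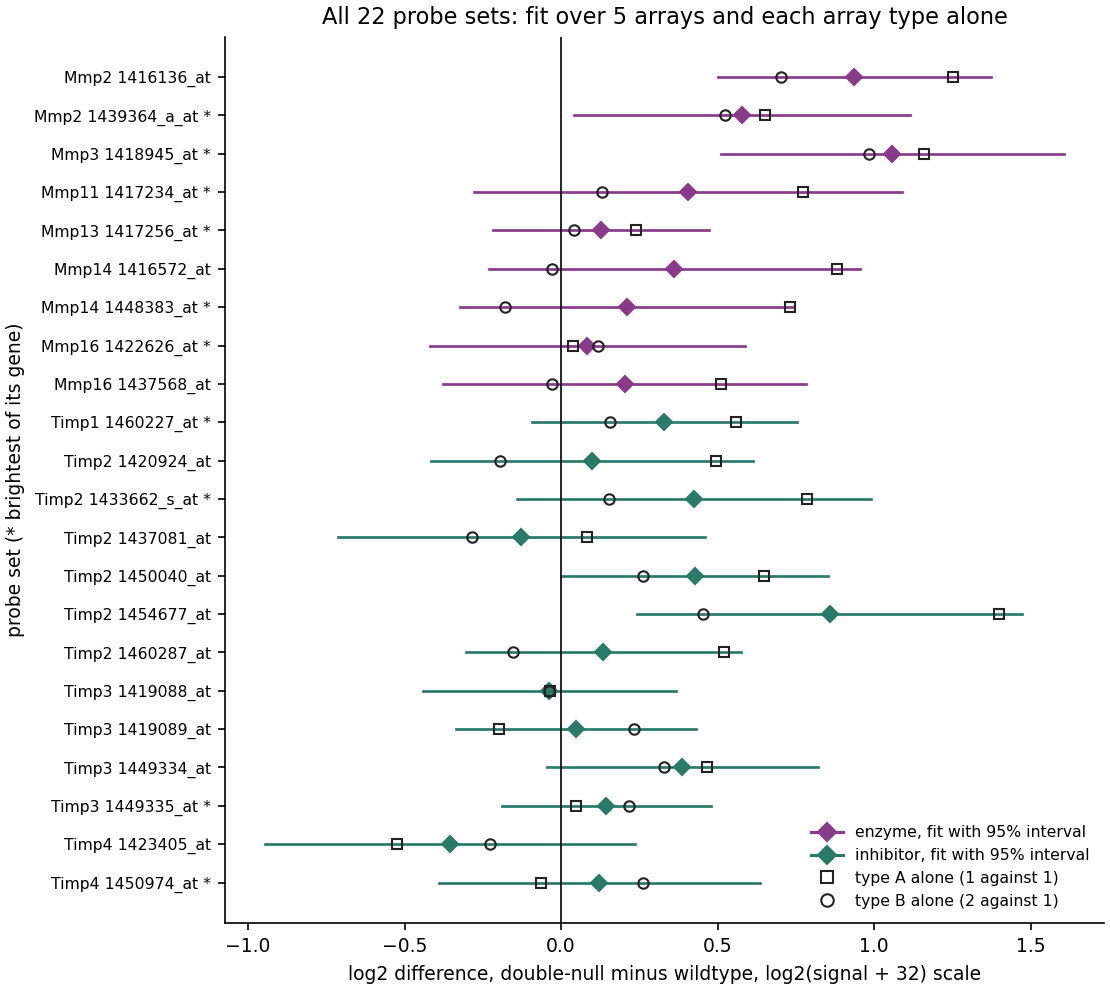
Log2 difference, double-null minus wildtype, for all 22 probe sets: filled diamonds with bars are the fit over 5 arrays with its 95% interval (purple for enzymes, green for inhibitors), open squares the difference on array type A and open circles that on type B. Mmp2 and Mmp3 lie right of 0 on both types, whereas the Mmp14 and several Timp2 probe sets are positive on type A and near or below 0 on type B.

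Enzymes and inhibitors were then compared as 2 sides. Over the brightest probe sets the 6 enzymes had a median log2 fold change of 0.31 (from 0.084 to 1.06) and the 4 inhibitors one of 0.24 (from 0.12 to 0.42), beside a median of -0.011 over all tested genes. The medians differed by 0.071. The enzyme median is the midpoint of Mmp14 and Mmp11. The sign of Mmp14 differed between the array types, and Mmp11 lay under 63.5, the highest Bacillus control of any array. Neither the enzyme median nor the difference therefore has a firm size. With the larger pseudocount the difference was -0.039. On type A the medians over all members were 0.69 and 0.30, and on type B 0.12 and 0.19, so their order turned between the array types. Over the tested members alone the medians were 0.69 and 0.56 on type A and 0.28 and 0.16 on type B. There the enzyme median was higher on both types, with Mmp3 included, which entered the test through the double-null pools. On type B Mmp3 was at 0.98, Mmp2 at 0.52, Mmp13 at 0.043 and Mmp14 at -0.18. The tested inhibitors were at 0.16 (Timp1), 0.15 (Timp2) and 0.22 (Timp3) on that type. The order of the tested medians on type B thus depends on Mmp3. Relative to the mean over the 5 arrays, the enzymes averaged -0.081 and -0.45 in wildtype pools 1 and 2 and 0.19, 0.18 and 0.15 in double-null pools 1 to 3. The inhibitors averaged -0.12 and -0.18, then 0.046, 0.11 and 0.15. Wildtype pool 2 was the lowest array on both sides. Without wildtype pool 1 the enzyme median was 0.69 and the excess over inhibitors 0.39. That fit rests on the type A pair alone, 1 pool against 1, and restates the type A medians over all members. These are descriptions of the chosen genes and carry no test.

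Pairs of an enzyme and an inhibitor were compared within each array, which cancels what both share. In the Mmp3 and Timp1 pair, the log2 enzyme value minus the log2 inhibitor value, centred on its 5-array mean, was -0.43 and -0.48 in the wildtype pools and 0.47, 0.32 and 0.12 in the double-null pools. In the Mmp3 and Timp3 pair it was -0.48 and -0.61 against 0.42, 0.16 and 0.50. The groups did not overlap in either pair, and the enzyme exceeded the inhibitor in fold change by 0.73 and 0.91. The double-null pools thus had more Mmp3 signal relative to these inhibitors, on type A (0.60 and 1.11) and on type B (0.83 and 0.77). The two-sided exact permutation test gave p = 0.1 for each, the smallest p that 10 arrangements of 2 against 3 arrays allow, and p = 0.3 adjusted over the 6 pairs compared. Both pairs share Mmp3 and are not separate evidence.

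In the other 4 pairs the groups overlapped. For Mmp2 and Timp2 the values were 0.077 and -0.42 against 0.40, 0.49 and -0.55, with a fold change difference of 0.15 that was -0.13 on type A and 0.37 on type B (exact permutation p = 0.6, adjusted p = 0.7). For Mmp14 and Timp2, the receptor complex for the Mmp2 proenzyme, they were 0.44 and -0.29 against 0.37, -0.17 and -0.35, with a difference of -0.21 (exact permutation p = 0.7, adjusted p = 0.7). The differences were -0.20 for Mmp13 and Timp1 and 0.43 for Mmp2 and Timp3 (exact permutation p = 0.4 and adjusted p = 0.6 for each). The spread among double-null pools in the Mmp2 and Timp2 pair, an SD of 0.58 on the brightest probe sets, exceeded the difference between groups. The fold change difference of this pair also depended on the processing. It ran from -0.13 to 0.62 over 13 alternatives and was 0.45 with probe sets averaged.

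**Figure D3:**
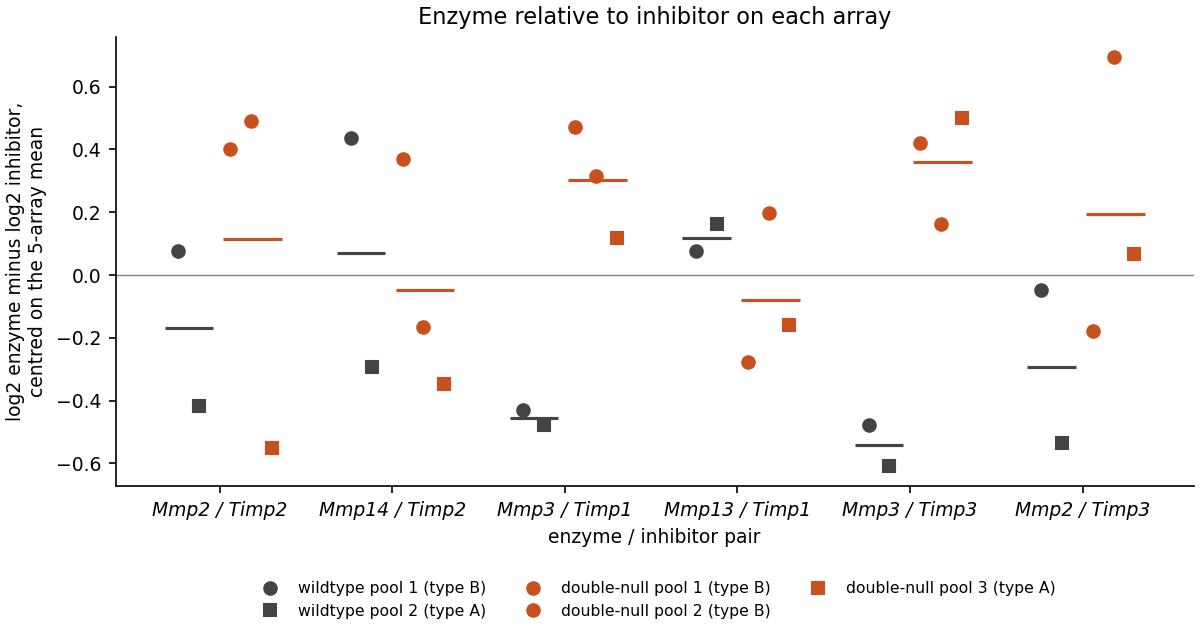
For 6 pairs, the log2 enzyme value minus the log2 inhibitor value on each array, centred on the mean of the 5 arrays; short lines are group means, grey for wildtype and orange for double-null pools, squares for array type A and circles for type B. In both pairs with Mmp3 all 3 double-null pools lie above both wildtype pools, and in the other 4 pairs the groups overlap.

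Mmp3 lies among other genes of its family on chromosome 9, and their values are set beside it here; differences between these genes were not tested. The RefSeq gene table orders 10 genes of the family there, from Mmp13 through Mmp12, Mmp1b, Mmp3, Mmp1a, Mmp10, Mmp8, Mmp27 and Mmp20 to Mmp7. Probe sets were used for 9, of which Mmp13, Mmp3 and Mmp8 lay above the filter, at 0.13, 1.06 and -0.40. Mmp8, the collagenase stored in neutrophil granules, read 3587 and 3429 in wildtype and 2071, 3627 and 2675 in double-null pools, with overlap. The other 6 genes (Mmp12, Mmp1b, Mmp1a, Mmp10, Mmp20 and Mmp7) lay under 63.5, the highest Bacillus control of any array. Their highest signal was 57.05, for Mmp10 in double-null pool 2. Mmp1a, Mmp10, Mmp12 and Mmp20 exceeded the highest control of the same array on some arrays. Their log2 differences have no usable size and cannot be set against that of Mmp3.

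**Figure D4:**
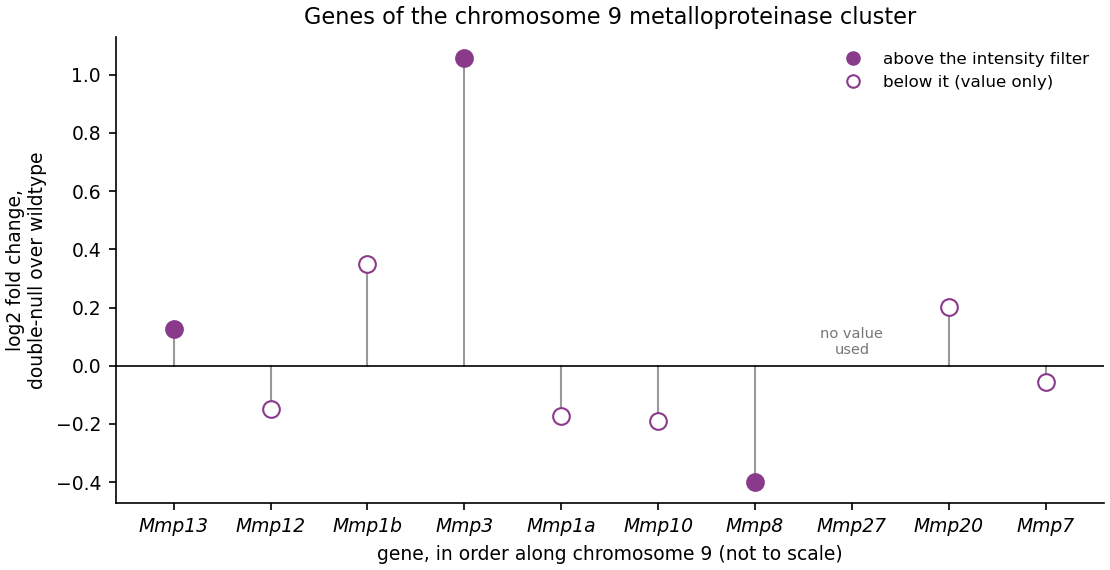
Log2 fold change, double-null over wildtype, of the family's genes in their order along chromosome 9 (spacing not to scale); filled points lay above the intensity filter and open points below it, and no value was used for Mmp27. Mmp3 stands at 1.06, Mmp13 at 0.13 and Mmp8 at -0.40. All open points belong to genes whose signals lay under 63.5, the highest Bacillus control of any array, so their heights are not measured sizes.

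Other metalloproteinases of the family, from a list drawn up for this comparison, gave no call. Of 17 other family genes 12 had probe sets and 4 were tested. In the limma fit 0 were called in either direction and 0 had an unadjusted p under 0.05, and groups lay apart for 0. Over all tested genes 0.121% were called and 6.17% had an unadjusted p under 0.05. Double-null pools lay above both wildtype pools for 9.45% of tested genes and below both for 10.2%. Mmp9, gelatinase B of osteoclasts and neutrophils, read 4572 and 2915 in wildtype and 3206, 3430 and 2637 in double-null pools, at -0.28. Mmp24 and Mmp23 were at 0.24 and 0.25, with Mmp23 at 1.04 (type A) but -0.34 (type B). Neutrophil markers had a median of -0.077 over 9 genes, with summed signals of 80953 to 129062 in wildtype and 80613 to 113175 in double-null pools. Osteoclast markers had a median of -0.26 over 5 genes, 0 of them positive, against 47.9% of tested genes. The osteoclast median was -0.032 on type A and -0.46 on type B. Summed osteoclast signals were 8935 and 5349 in wildtype pools 1 and 2 and 5199 to 5283 in double-null pools. The part of neutrophil and osteoclast content in the values of Mmp8 and Mmp9 was not tested.

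ADAM and ADAMTS enzymes, related metalloproteinases of which several are inhibited by Timp3, were split. Of 10 tested, 5 were positive and 5 negative, with a median of -0.014. In the limma fit 0 were called in either direction and 1 was lower at unadjusted p under 0.05. Over all tested genes 47.9% were positive, 0.121% were called and 6.17% had such a p. Adamts5, an aggrecanase, read 265 and 358 against 171, 233 and 206, at -0.49 (limma adjusted p = 0.71), and Adam15 was at -0.32, both with double-null pools lower. Adam9 was at 0.21, with double-null pools higher on the normalised scale, and Adam8 was at -0.20. Double-null pools lay below both wildtype pools for 10.2% of tested genes and above both for 9.45%. Genes of proenzyme activation, cell-surface control and clearance showed 5 positive and 7 negative among 12 tested, with a median of -0.013 and 0 called (limma; 0 at unadjusted p under 0.05). Furin, the convertase that activates the Mmp14 and Mmp11 proenzymes, was at -0.28. Reck, a membrane inhibitor of the family, was at 0.20, and Lrp1, a receptor that clears the enzymes, at 0.13, as was the caveolin gene Cav1. On types A and B respectively, Furin was at 0.22 and -0.66, Reck at -0.079 and 0.40, and Lrp1 at 0.35 and -0.042. The signs of Furin, Reck and Lrp1 thus differed between the array types, while Cav1 was positive on both.

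Inducers of these genes were 10 positive and 2 negative among 12 tested, with a median of 0.084. In the limma fit 0 were called and 1 had an unadjusted p under 0.05. Over all tested genes 47.9% were positive, 0.121% were called and 6.17% had such a p. The median of the inducers was 0.17 on type A but -0.042 on type B. Fos, a subunit of AP-1, read 247 and 301 in wildtype and 585.5, 572 and 328 in double-null pools, with no overlap. Its log2 fold change was 0.70 (limma adjusted p = 0.55), and type B (1.13) gave far more of it than type A (0.12). The transcription factor genes Ets1, Egr1 and Rela were at 0.23, 0.18 and 0.13. The proinflammatory cytokine genes Il1a, Tnf and Il6 lay below the filter.

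Stromal markers had positive values in the same pools. All 9 fibroblast and synovium markers were positive, with a median of 0.39, 6 with double-null pools above both wildtype pools and 0 called (limma; 4 at unadjusted p under 0.05). Over all tested genes 47.9% were positive, 9.45% had double-null pools above both wildtype pools, 6.17% had an unadjusted p under 0.05 and 0.121% were called. Their summed signals were 5484 to 8207 in wildtype and 7972 to 10290.4 in double-null pools. Among them the dermatopontin gene Dpt was at 0.998 and the serine protease gene Htra1 at 1.01. The 3 tested tendon and ligament markers had a median of 1.02, with summed signals over 6 genes of 1174 to 1284 against 1556 to 1958; Scx, Kera and Chodl of that list lay below the filter. Matrix substrates of these enzymes were 14 positive and 5 negative among 19 tested, with a median of 0.18 and 3 called higher (Col3a1, Lum and Fn1; limma, against 0.0807% of tested genes called higher). The substrate list includes genes already known to differ in these arrays when it was drawn up. The fibroblast, synovium, tendon and ligament lists were also drawn up with earlier results of these data known. Macrophage, endothelial, erythroid and B lineage markers had medians of -0.087, 0.0082, -0.022 and -0.25, muscle markers one of -0.073, adipocyte markers one of -0.19 and chondrocyte markers one of -0.11. Summed muscle signals were 50583 to 59697 in wildtype and 31834 (double-null pool 2) to 72119 (double-null pool 3) in double-null pools. Summed chondrocyte signals were 15467 and 7633 in wildtype pools 1 and 2 and 8512 to 10186 in double-null pools, and the chondrocyte median was 0.15 on type A but -0.43 on type B. The part of stromal, muscle or cartilage content in the member values was not tested.

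Genes with the most similar profile were sought for the 3 tested members with the smallest p, by the root mean square difference between log2 profiles centred on their 5-array means. For Mmp3 these were Htra1 (0.050), Lum (0.10), encoding lumican, and Col6a1 (0.11), encoding a collagen VI chain, against a median of 0.59 over all tested genes. For Mmp2 they were Tubb6 (0.13), Erlec1 (0.13) and Abhd14b (0.14), against a median of 0.51. For Timp2 they were Tbcel (0.10), Padi4 (0.10) and Hr (0.11), against a median of 0.38. On their brightest probe sets the 3 members differed in profile. Mmp3 peaked in double-null pool 1, Mmp2 in double-null pool 2 and Timp2 in double-null pool 3. The Mmp2 profile and its nearest genes belong to that probe set alone. On the second Mmp2 probe set double-null pool 2 was the lowest double-null pool (1029.8, 809 and 1022 in pools 1 to 3). The Timp2 profile likewise belongs to its brightest probe set, where double-null pool 1 read 1032 against 1085.5 and 988 in wildtype. On another Timp2 probe set that pool read 1287 against 728 and 498. Likeness over 5 arrays is a description only.

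**Figure D5:**
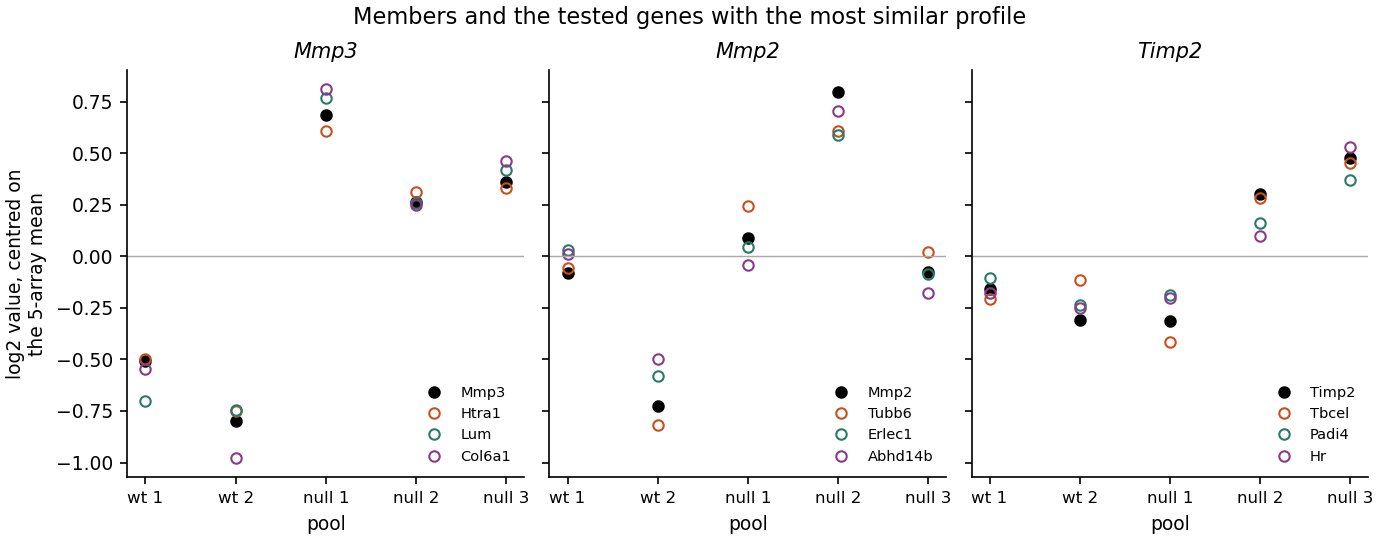
Log2 values centred on the 5-array mean for Mmp3, Mmp2 and Timp2 (filled black) and the 3 tested genes nearest to each (open), in the 2 wildtype (wt) and 3 double-null (null) pools. Htra1, Lum and Col6a1 follow Mmp3 in all pools, low in both wildtype pools and highest in double-null pool 1.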

How the data were processed

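RNA of whole joints was labelled with biotin by in-vitro transcription, per the labels' protocols. The deposited values are linear signal intensities, 1 per probe set. MAS5 is the tool named in the submitters' processing notes, with no version or scaling target given there, and detection calls were not used. The platform annotation gave 1 symbol for 20393 probe sets, several for 691 and none for 1606. Symbols of 20364 were updated through GRCm38.p6 gene numbers. Values were taken as log2(signal + 32), quantile normalised, and fitted in R 4.3.3 by limma 3.58.1 (lmFit, then eBayes with intensity trend, array type as a term, two-sided, Benjamini-Hochberg, threshold 0.05). The gene fit took the brightest probe set per gene above the 40th percentile; a second fit took all 22626 probe sets unfiltered. Means over pools weight pools equally. The fit was tested on simulated data. Members and lists were chosen with earlier results of these data known. Named genes were all members, up to 4 genes of smallest p per pathway list and up to 2 per marker list (printed where they bear on a member), and the 3 nearest profiles of 3 members. Alternatives covered scaling, pseudocount, filter, array type, replicate block, trend, probe set averaging and each array left out.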

Additional observations from a re-analysis of the deposited data

How the results depend on the processing

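No member passed the limma threshold in 15 of 16 alternatives; leaving out single pools gave 0 to 1 members, the 1 being Mmp3 without double-null pool 2. No member probe set passed in any of 13 alternatives. Leaving out single pools, the enzyme median ran from 0.12 to 0.69 and the inhibitor median from 0.19 to 0.31. Their difference ran from -0.064 to 0.39. The highest of each came without wildtype pool 1, which leaves the contrast to the type A pair, 1 pool against 1. The lowest of each came without wildtype pool 2, which leaves it to type B. Mmp14 turned negative with type B by itself (-0.18), with wildtype pool 2 left out (-0.18) and with double-null pool 3 left out (-0.18). These are 1 contrast, since a lone array of a type adds nothing to it. The other 6 tested members stayed positive in every alternative in which they were tested, and pairs with a positive difference numbered 3 to 5 of 6. The smaller and the larger pseudocount moved the Mmp3 and Timp1 pair from 0.73 to 1.05 and 0.34, since Mmp3 is dim. With the replicate block in place of array type no member passed, Mmp3 was at 1.13 (adjusted p = 0.71), and enzymes exceeded inhibitors by 0.056. Deviations of same-numbered pools from their group means had a correlation across genes of 0.0048 for number 1 and -0.18 for number 2. With 2 wildtype pools the deviations of 1 mirror those of the other. These values therefore cannot tell whether same-numbered pools share more than a number. Over all genes 9 passed, against 5 with the deposited scaling or without the trend, 4 without the array type term, 2 without the filter or on type B alone, 0 with the replicate block (1 member at unadjusted p under 0.05), and 2 to 50 without single pools. Dim members (Mmp3 in wildtype, Mmp11, Mmp16, Timp4) lie near control signal, which limits their fold changes.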
